A study of Homo sapiens with 6 samples.

Results

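The calpain genes, their small regulatory subunits and their inhibitor calpastatin were followed in MCF-10A cells, a non-tumorigenic human breast epithelial line, with and without a lentivirus that carries MBD2. The genes were CAPN1, CAPN2, CAPN5, CAPN7, CAPNS1, CAPNS2 and CAST. They were chosen by the increase of CAPN2 on these same arrays, so the values of this contrast describe them and are not a test of the choice. Every probe set that the platform annotation gives to exactly 1 of these symbols was kept, which left 15 probe sets of 7 genes, out of 41091 probe sets with a single symbol for 19775 genes and 54675 rows in all.

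Calpains are cysteine proteases of the cytoplasm that cut their substrates at a few sites and so change rather than destroy them. CAPN1 and CAPN2 encode the catalytic subunits of the classical enzymes, which need calcium, pair with the small subunit CAPNS1 and are held in check by calpastatin. In epithelial cells and fibroblasts they are best known for the release of focal adhesions, where talin, vinculin and other linker proteins are cut as a cell moves.

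RNA of 3 control and 3 MBD2 samples had been hybridised to Affymetrix Human Genome U133 Plus 2.0 arrays, and each value is a log2 signal of 1 probe set after RMA, so a difference of 1 is a doubling. All cells were MCF-10A in mammary epithelial medium (MEGM). The treated cells are labelled MBD2 transfection, and the virus was made in HEK293 cells from an MBD2-lenti plasmid whose promoter is not given in the sources used here. The sources differ on the controls, which are non-infected cells in the design text and cells with an empty virus in the methods, and on the replicates, which are technical in the design text and biological in the methods. Where the arrays are technical replicates, the errors below measure the spread between arrays and not between cultures. As these are bulk samples, fewer cells that use a gene and less RNA per cell cannot be told apart.

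The MBD2 probe set 202484_s_at read 8.92, 9.03 and 9.68 on the control arrays and 12.17, 11.72 and 12.50 on the MBD2 arrays, a difference of 2.92 (SE 0.28) with an adjusted p of 0.0157 from limma, and its adjusted p was over 0.05 without control array 1 or 2 or MBD2 array 3 (0.0957, 0.107 and 0.0828). Its other 3 probe sets differed by -0.08, -0.03 and 0.11, and 2 of them were near background on all arrays. The arrays were not equally alike within their groups. Control arrays 1 and 2 had only 5 of 19775 genes over 2-fold apart, against 1572 and 1571 between each of them and control array 3, and MBD2 arrays 2 and 3 had 95, against 2877 and 2565 between each of them and MBD2 array 1. Genes of cell division stood at a median of 0.56, 0.42 and -1.01 from their control mean on control arrays 1, 2 and 3 and at -0.53, 1.68 and 1.49 on MBD2 arrays 1, 2 and 3. The Affymetrix hybridization controls averaged 10.89, 11.09 and 10.81 on control arrays 1, 2 and 3 and 10.72 on MBD2 array 1. They were lower on MBD2 arrays 2 and 3, at 9.72 and 9.79. What part the cell division genes or this difference between arrays had in the results below was not tested. Of the 6 markers of basal breast epithelium measured, none was near background, and KRT5 and KRT14 read 11.49 or more on every array. None of the 6 was called, and their median difference was -0.49. KRT5 differed by -1.26, CDH3 by -1.14, KRT14 by -0.56, EGFR by -0.41 and ITGA6 by -0.35, while LAMB3 went the other way at 0.61. Of 8 luminal markers, PGR was at background on every array, KRT8 was called higher and MUC1 lower. None of the 8 fibroblast markers was at background on all arrays, and their summed level ran from 10.3 to 11.8 in controls and from 11.1 to 13.6 with MBD2. DCN read 12.57 on MBD2 array 1 and at most 9.74 on the others. COL3A1 (8.90), LUM (9.63) and FAP (11.77) were also highest on that array, while COL1A1, COL1A2, PDGFRB and THY1 were not. Of the 6 endothelial markers measured, 2 were at background on all 6 arrays (CDH5 and KDR), and of the 5 leukocyte markers measured, 1 was (PTPRC). The rest of both lists, such as PECAM1 and CD3E, were not. The summed leukocyte markers ran from 10.1 to 10.9 in controls and from 7.80 to 8.68 with MBD2, CD14 read 9.88 to 10.79 and 6.57 to 8.27, and the part of these markers in the results was not tested.

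MBD2 binds methylated CG dinucleotides, so the CG positions at the start sites of the genes with the 2 largest differences are shown. Each sequence is a RefSeq window (GRCh38.p14, plus strand, 250 bases before to 50 after a start site), and capitals mark every CG. Methylation was not measured on these arrays.

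CAPN2, chr1:223712289-223712588: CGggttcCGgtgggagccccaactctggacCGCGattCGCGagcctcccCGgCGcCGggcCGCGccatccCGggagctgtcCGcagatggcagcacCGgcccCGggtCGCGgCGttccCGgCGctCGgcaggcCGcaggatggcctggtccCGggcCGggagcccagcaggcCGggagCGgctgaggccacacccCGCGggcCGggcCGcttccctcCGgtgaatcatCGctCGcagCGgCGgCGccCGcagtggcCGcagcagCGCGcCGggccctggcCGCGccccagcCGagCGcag

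CAPN2, chr1:223701347-223701646: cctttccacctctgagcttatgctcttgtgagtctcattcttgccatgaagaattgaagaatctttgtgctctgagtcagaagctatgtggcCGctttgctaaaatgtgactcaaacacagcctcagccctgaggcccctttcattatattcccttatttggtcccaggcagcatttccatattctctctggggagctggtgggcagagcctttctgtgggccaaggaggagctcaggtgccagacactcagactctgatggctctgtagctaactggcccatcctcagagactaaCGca

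CAPNS2, chr16:55566434-55566733: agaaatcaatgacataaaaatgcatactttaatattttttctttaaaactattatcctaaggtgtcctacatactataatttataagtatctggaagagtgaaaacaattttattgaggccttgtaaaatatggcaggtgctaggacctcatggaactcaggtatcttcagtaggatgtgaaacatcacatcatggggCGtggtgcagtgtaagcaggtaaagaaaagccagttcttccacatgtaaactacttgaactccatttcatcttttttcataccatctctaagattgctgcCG

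The windows of CAPN2 differ in this letter pair. The downstream start site has 45 CG in 300 bases, a number reached by 3.48% of the 35116 windows of the table, and the upstream one has 2, reached by 89% of them. The CAPNS2 window also has 2. A CG is found in 96% of all windows and the median window has 14. Of the 7 genes 6 had an entry, with 14 windows. The 3 windows of CAPN1 have 26, 28 and 20 CG, that of CAPN7 38 and those of CAPNS1 35 and 13. CAST has 5 windows with between 3 and 30. CAPN5 had no entry. Which start sites these cells use was not measured, and a count of CG is a description of the sequence.

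CAPN2, the catalytic subunit of m-calpain, was higher with MBD2 at 1 of its 2 probe sets. Probe set 208683_at read 11.89, 11.83 and 11.89 on the control arrays and 13.22, 13.19 and 13.34 on the MBD2 arrays. Every MBD2 array lay above every control array, with a gap between the groups far wider than the spread inside either. The control mean was 11.87 ± 0.03 (SD, n = 3) and the MBD2 mean 13.25 ± 0.08 (SD, n = 3), a difference of 1.38 (SE 0.09) or 2.60-fold. Control array 3 and MBD2 array 1, which differ from the others of their groups across many genes, did not stand apart here, and the difference was 1.40 without both. The probe set passed the call used throughout, an adjusted p under 0.05 in limma and at least 1.5-fold. Leaving out MBD2 array 3 or either of the first 2 control arrays ended that call, while the difference stayed between 1.33 and 1.41 with any 1 array left out.

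The second CAPN2 probe set, 214888_at, did not follow it. It read 6.70, 6.44 and 5.996 on the control arrays and 7.91, 6.10 and 6.12 on the MBD2 arrays. Only MBD2 array 1 was high, and the other MBD2 arrays lay among the controls. Its difference was 0.33 (SE 0.53), and -0.27 without MBD2 array 1. With both probe sets averaged, the CAPN2 difference was 0.86 (SE 0.27) and did not pass the call. By size of increase, 208683_at was at place 608 of the 41091 probe sets. CAPN2 lies on chromosome 1 and overlaps 3 lncRNA genes in the RefSeq gene table.

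**Figure D1:**
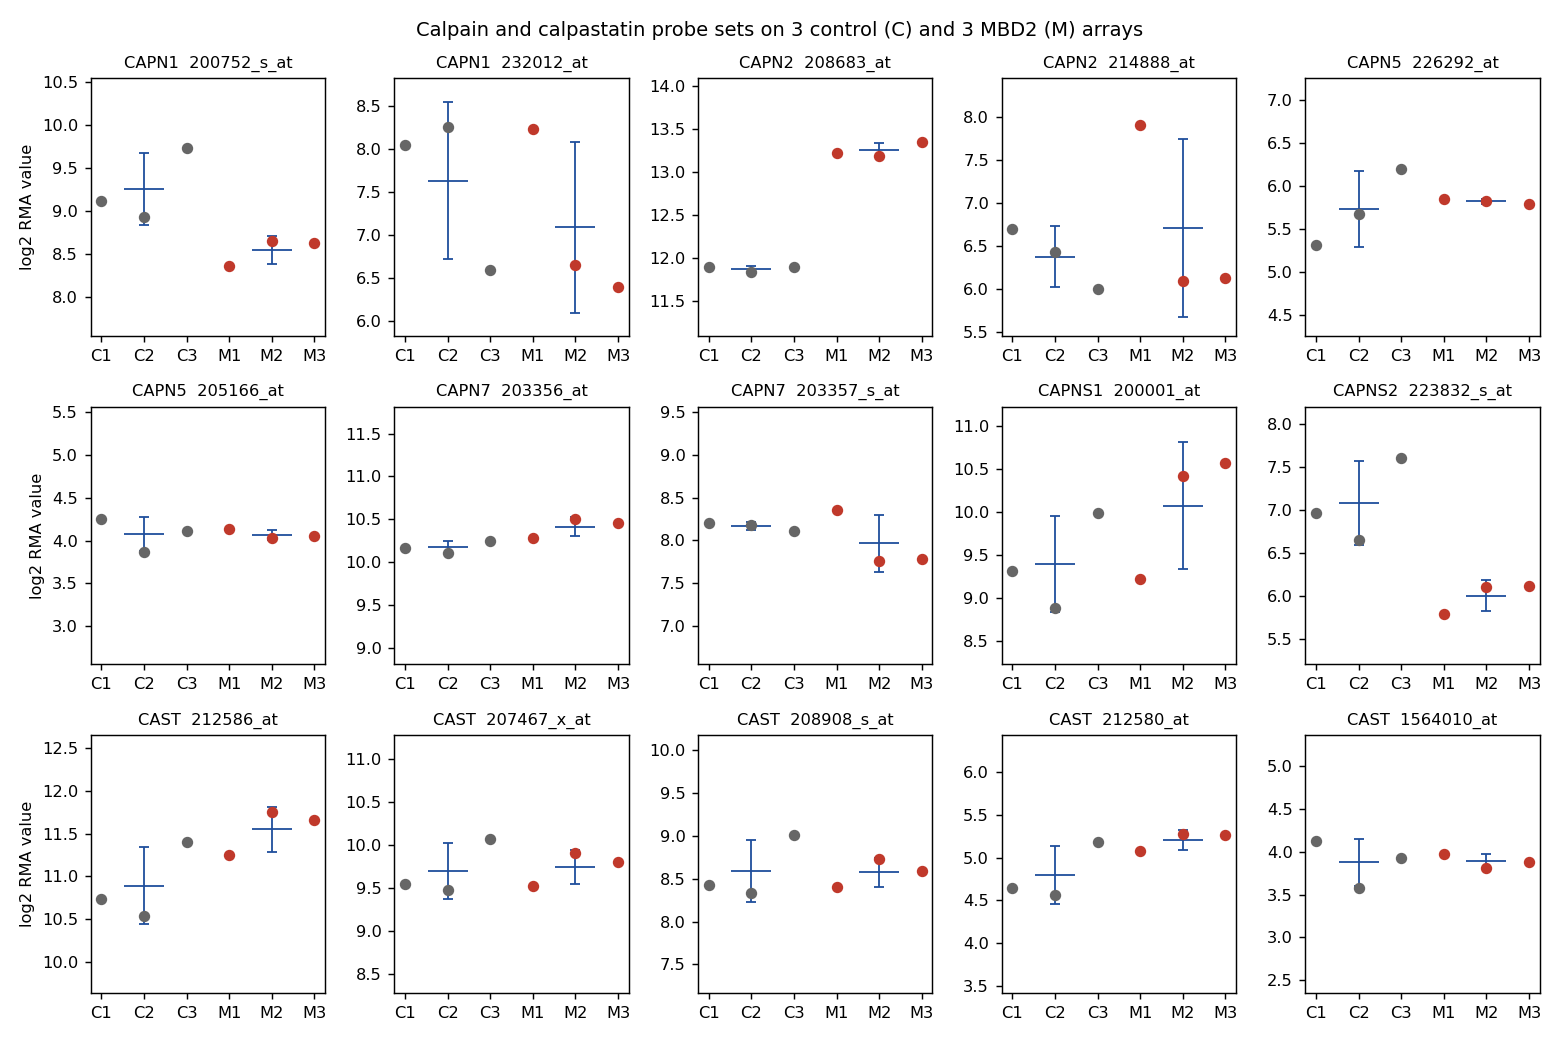
Log2 RMA value (vertical axis, 3 units high in every panel) of each of the 15 probe sets on control arrays C1 to C3 (grey points) and MBD2 arrays M1 to M3 (red points), with the mean and SD of each group in blue. Both groups are tight and far apart for CAPN2 208683_at, all MBD2 points lie below the controls for CAPNS2 and CAPN1 200752_s_at, and in most other panels the groups overlap.

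CAPN1, the catalytic subunit of µ-calpain, was on the low side with MBD2 but did not pass the call. Probe set 200752_s_at read 9.11, 8.93 and 9.73 on the control arrays and 8.36, 8.65 and 8.62 on the MBD2 arrays. All MBD2 arrays lay below all controls, and control array 3 was the highest. The means were 9.26 ± 0.42 and 8.54 ± 0.16 (SD, n = 3 each), a difference of -0.72 (SE 0.23) that ranged from -0.88 to -0.48 with any 1 array left out. It was -0.39 (SE 0.12) without control array 3 and MBD2 array 1.

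The other CAPN1 probe set, 232012_at, read 8.05, 8.26 and 6.59 on the control arrays and 8.23, 6.65 and 6.39 on the MBD2 arrays. Control array 3 was low like MBD2 arrays 2 and 3, and MBD2 array 1 was high like the remaining controls, so the groups overlapped. The difference was -0.54 (SE 0.64) over all arrays. Without both of those arrays it was -1.63 (SE 0.14) and passed the call. That fit, here and below, rests on 2 near-identical arrays a group, so its errors measure only the spread between those. It called 6380 of the 41091 probe sets higher and 4094 lower, against 369 and 402 over all arrays. In the same cells and at their brightest probe sets, the differences of CAPN1 and CAPN2 thus had opposite signs. CAPN1 lies on chromosome 11, where CAPN1-AS1 overlaps it.

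CAPNS1, the small subunit that both classical enzymes share, had the widest spread between arrays among the brightest probe sets of these genes. Its probe set 200001_at read 9.31, 8.88 and 9.99 on the control arrays and 9.22, 10.42 and 10.57 on the MBD2 arrays. MBD2 arrays 2 and 3 were above all controls, whereas MBD2 array 1 lay inside the control range. The means were 9.40 ± 0.56 and 10.07 ± 0.74 (SD, n = 3 each), a difference of 0.68 (SE 0.45) within the spread between arrays. It was 1.40 (SE 0.16) without control array 3 and MBD2 array 1. It then passed the call, in the fit that rests on near-identical arrays and called 6380 of all probe sets higher.

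CAPNS2, a second small subunit gene, had the largest decrease among the 15 probe sets. Its only probe set, 223832_s_at, read 6.97, 6.66 and 7.61 on the control arrays and 5.79, 6.11 and 6.11 on the MBD2 arrays. Every MBD2 array was below every control, and control array 3 was the highest. The means were 7.08 ± 0.49 and 6.004 ± 0.18 (SD, n = 3 each), a difference of -1.08 (SE 0.26) that did not pass the call and ranged from -1.29 to -0.81 with any 1 array left out. It passed when the arrays were centred on housekeeping genes (-1.37, SE 0.27) and without control array 3 and MBD2 array 1 (-0.70, SE 0.14). The housekeeping genes themselves differed by a median of 0.21, from -1.19 to 0.96. Centring on them took the median of all probe sets to -0.30. CAPNS2 lies on chromosome 16 within the span of LPCAT2, and the ending _s_at marks probes that match several transcripts. Whether they also read LPCAT2 or CAPNS1 RNA was not tested.

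CAST, the gene of the inhibitor calpastatin, is read by 5 probe sets that gave different pictures. The brightest, 212586_at, read 10.74, 10.54 and 11.40 on the control arrays and 11.25, 11.75 and 11.65 on the MBD2 arrays. Control array 3 lay above MBD2 array 1, and otherwise the MBD2 arrays were the higher ones. The means were 10.89 ± 0.45 and 11.55 ± 0.26 (SD, n = 3 each), a difference of 0.66 (SE 0.26) that was 1.06 (SE 0.13) and passed the call without control array 3 and MBD2 array 1. Probe set 212580_at had the same order of arrays, with a difference of 0.41 (SE 0.19) over all arrays and 0.66 (SE 0.12) without those 2, where it passed too.

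The remaining CAST probe sets had differences smaller than their errors. Probe set 207467_x_at read 9.55, 9.48 and 10.07 on the control arrays and 9.52, 9.90 and 9.81 on the MBD2 arrays, a difference of 0.04 (SE 0.20). Probe set 208908_s_at differed by -0.01 (SE 0.21). Probe set 1564010_at was near background on all 6 arrays, within 0.5 of the highest value of spike-in probe sets whose RNA had been left out, and differed by 0.01 (SE 0.16). The mean of the 5 gave 0.22 (SE 0.18). CAST lies on chromosome 5 and its span in the RefSeq gene table overlaps ELL2, PCSK1 and ERAP1.

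CAPN7 and CAPN5 encode calpains without the calcium-binding end that pairs with the small subunit. CAPN7, linked to the sorting of membrane proteins, read 10.17, 10.11 and 10.25 at 203356_at on the control arrays and 10.29, 10.51 and 10.45 on the MBD2 arrays. The groups did not overlap, but MBD2 array 1 lay only 0.03 above control array 3. The difference was 0.24 (SE 0.11), and -0.20 (SE 0.18) at the second CAPN7 probe set, 203357_s_at, where the groups overlapped. Centred on housekeeping genes, 203356_at gave -0.05 (SE 0.21).

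CAPN5 read 5.31, 5.68 and 6.20 at 226292_at on the control arrays and 5.85, 5.83 and 5.79 on the MBD2 arrays. All MBD2 arrays lay inside the range of the controls, and the difference was 0.09 (SE 0.23). Its other probe set, 205166_at, was near background on 5 arrays and differed by -0.01 (SE 0.13). CAPN5 lies on chromosome 11 and overlaps OMP.

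Among the 15 probe sets, 1 was called higher and 0 lower, where 0.898% of all probe sets tested were called higher and 0.978% lower. The groups did not overlap for 2 that were higher (CAPN2 208683_at and CAPN7 203356_at) and 2 that were lower (CAPN1 200752_s_at and CAPNS2), against 10.4% and 12.3% of all probe sets, and they overlapped for the other 11. The fold rule of the methods asks for over 1.5-fold, or under 0.5-fold, of the control mean in each MBD2 array. CAPN2 208683_at passed it as higher and no other member passed it in either direction, against 2.99% and 1.4% of all probe sets. These counts come from the contrast that chose the genes. The median difference was 0.04 over the 15 and -0.00466 over all probe sets tested, and the 15 ran from -1.08 to 1.38. CAPNS2 (2.11-fold), CAPN1 200752_s_at (1.64-fold), CAPNS1 (1.60-fold) and CAST 212586_at (1.58-fold) were past 1.5-fold in size and missed the call by the adjusted p.

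The places of the 2 arrays that stood apart are given as a description. In a group of 3, any array is often the highest or the lowest, and such places were not counted over all probe sets. Control array 3 was the highest control in 9 of the 15 probe sets and the lowest in 3, and MBD2 array 1 was the highest MBD2 array in 6 and the lowest in 8. Without both, 4 probe sets were called higher, namely CAPN2 208683_at, CAPNS1 and 212586_at and 212580_at of CAST, and 2 lower, namely CAPN1 232012_at and CAPNS2. That fit rests on 2 near-identical arrays a group and called 6380 of all probe sets higher and 4094 lower. With control arrays 1 and 2 averaged, and likewise MBD2 arrays 2 and 3, limma called 0 of all probe sets in either direction, with 2747 at an unadjusted p under 0.05, and the CAPN2 difference was 1.37 (SE 0.13).

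**Figure D2:**
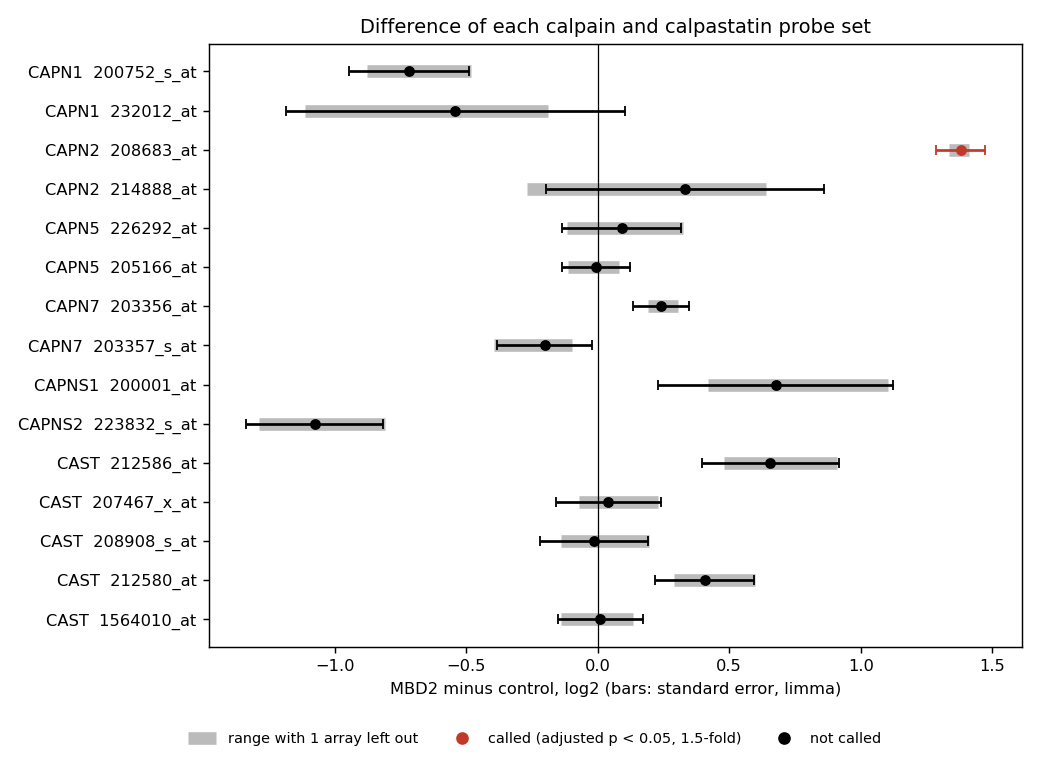
Difference of each of the 15 probe sets, MBD2 minus control on the log2 scale (points), with the standard error from limma (bars) and the range of the difference with any 1 array left out (grey). CAPN2 208683_at, in red, is the only one that passed the call, at 1.38 with a range of 1.33 to 1.41, while CAPNS1 ranged from 0.42 to 1.10.

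None of the remaining calpain genes, several of which are best known from muscle, stomach, testis or placenta, passed the call. Of 11 listed, 10 were measured, and 0 were called by its brightest probe set, as against 1.04% of all genes called higher and 1.28% lower. Before adjustment, 0 had a limma p under 0.05 as higher and 2 as lower, against 8.83% and 9.79% of all genes. The groups did not overlap for 6, all lower with MBD2, where 14.6% of all genes had separate groups with MBD2 lower and 10.4% with MBD2 higher. CAPN8 and CAPN14 were among these 6 and were near background on all arrays, and the gap between the groups was 0.0015 for CAPN12 and 0.012 for CAPN13. CAPN3, the muscle calpain, differed by -0.40 (SE 0.12) with an adjusted p of 0.195 from limma, and CAPN6, which lacks the catalytic cysteine, by -0.74 (SE 0.26) with an adjusted p of 0.237. Their other probe sets differed by 0.20 and -0.09 (CAPN3) and by 0.02 and -0.02 (CAPN6). All of these but the first were near background on all arrays. CAPN15 204275_at, not its brightest probe set, differed by 0.41 (SE 0.37). Without control array 3 and MBD2 array 1 it was called higher (0.98, SE 0.17). CAPN10 differed by 0.05 (SE 0.11), adjusted p of 0.860 from limma. The median of the 10 was -0.12, and -0.02 over all genes. CAPN3, CAPN6 and CAPN15 were named after their values were seen.

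The other proteins with the penta-EF-hand fold of the small subunit, PDCD6, SRI, PEF1 and GCA, were all measured. None was called, against 1.04% of all genes called higher and 1.28% lower. Their groups overlapped, where 10.4% of all genes had separate groups as higher and 14.6% as lower. Before adjustment 0 had a limma p under 0.05, against 8.83% of all genes as higher and 9.79% as lower. With 4 genes, such counts say little. Their median difference was -0.00265. Without control array 3 and MBD2 array 1, the probe sets of PDCD6 were called in opposite directions, the brightest higher (0.97, SE 0.12) and 2 others lower (-2.24, SE 0.20, and -0.71, SE 0.18).

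Among known calpain substrates of adhesion and the cytoskeleton, 19 of 20 were measured. None passed the call over all arrays, against 1.04% of all genes called higher and 1.28% lower. Before adjustment, 6 had a limma p under 0.05 as higher and 2 as lower, against the same 8.83% and 9.79% of all genes. The groups did not overlap for 6 that were higher and 3 that were lower, against the 10.4% and 14.6% of all genes above, and the median was 0.37. Of the proteins that calpains cut at focal adhesions and in the cell cortex, TLN1 (talin) differed by 0.10 (SE 0.20) with an adjusted p of 0.852 from limma. VCL (vinculin) differed by 0.58 (SE 0.25) with an adjusted p of 0.323, and PTK2 (focal adhesion kinase) by 0.29 (SE 0.26) with an adjusted p of 0.625. SPTAN1, the spectrin whose cleavage is the common readout of calpain activity, differed by -0.21 (SE 0.27) with an adjusted p of 0.756, and EZR (ezrin) by -0.28 (SE 0.12) with an adjusted p of 0.333. Without control array 3 and MBD2 array 1, PTK2 also had calls in both directions, with its brightest probe set higher (0.69, SE 0.13), another higher (1.86, SE 0.17) and another lower (-2.05, SE 0.16). In that fit, dimmer probe sets of SPTAN1 (-1.49, SE 0.12) and TLN1 (-0.72, SE 0.16) were called lower and a dimmer one of EZR higher (0.84, SE 0.19). The same SPTAN1 probe set was called lower without MBD2 array 1 alone (-1.38, SE 0.14).

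Of this list, the genes at least 2-fold apart were named after their values were seen. VIM, the intermediate filament vimentin, read 9.31, 9.18 and 6.97 on the control arrays and 11.84, 12.78 and 13.16 on the MBD2 arrays. Control array 3 was far below the other controls and all MBD2 arrays were higher than all controls. The difference at this brightest probe set was 4.11 (SE 0.71) with an adjusted p of 0.055 from limma, just over the threshold. A dimmer VIM probe set differed by only 0.88 (SE 0.17) over all arrays and was not called. Averaged over its probe sets, VIM differed by 2.49 (SE 0.36) and passed the call. VIM passed in 5 of the alternative tests that used all arrays, the average among them. CDH1, the epithelial adhesion protein E-cadherin, read 13.47, 13.67 and 13.03 on the control arrays and 12.73, 11.08 and 11.53 on the MBD2 arrays, a difference of -1.61 (SE 0.44) with an adjusted p of 0.158. ACTN1 (1.38, SE 0.45, adjusted p 0.216) and PXN (1.05, SE 0.21, adjusted p 0.080), the focal adhesion proteins alpha-actinin and paxillin, did not pass over all arrays. The calls changed with the arrays in the fit, and the cause was not tested. ACTN1 was called higher without control array 3 (0.84, SE 0.11), PXN higher without MBD2 array 1 (1.26, SE 0.13) and CDH1 lower without MBD2 array 1 (-2.09, SE 0.24). Without both arrays, the brightest probe sets of VIM (3.72, SE 0.15), ACTN1 (0.84, SE 0.12) and PXN (1.18, SE 0.12) were called higher and that of CDH1 lower (-2.27, SE 0.17). That fit called 6380 of all probe sets higher and 4094 lower.

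Among the substrates of cell death and signalling, 12 of 15 were measured, and PRKCA alone passed the call, as higher, against 1.04% of all genes. PRKCA, protein kinase C alpha, read 5.92, 5.99 and 6.58 on the control arrays and 8.33, 7.92 and 8.14 on the MBD2 arrays. The groups lay far apart. It rose by 1.96 (SE 0.21) or 3.90-fold with MBD2, adjusted p of 0.0201 from limma, but its adjusted p was over 0.05 when control array 1, control array 2, MBD2 array 2 or MBD2 array 3 was dropped (0.107, 0.121, 0.0719 and 0.116). Averaged over its probe sets, PRKCA differed by 0.55 (SE 0.11) and did not pass. The median of the 12 was 0.16, and before adjustment 3 had a p under 0.05 as higher and 1 as lower, against 8.83% and 9.79%.

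The genes of calcium entry, stores and export set the ion that the classical calpains need. Of 18 listed, 15 were measured and none was called by its brightest probe set, against 1.04% of all genes called higher and 1.28% lower. Before adjustment 0 had a limma p under 0.05, against 8.83% of all genes as higher and 9.79% as lower. The groups did not overlap for 1, which was higher, against 10.4% of all genes higher and 14.6% lower, and the median was -0.19. ORAI2, a store-operated channel subunit, was named after its values were seen, since 3 of its other probe sets were called higher (1.01, 0.67 and 1.18) while its brightest one differed by -0.32 (SE 0.66). The brightest ORAI2 probe set read 9.29, 9.44 and 8.20 on the control arrays and 10.05, 7.90 and 8.02 on the MBD2 arrays. As with CAPN1 232012_at, control array 3 was low and MBD2 array 1 was high. Without both, it was called lower (-1.41, SE 0.13), opposite to the 3 others, which stayed called higher (1.07, 0.69 and 1.27).

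The list medians depended on which probe sets were read. The adhesion median of 0.37 was 0.12 with the mean of each gene's probe sets, 0.07 with only probe sets without an ending for shared sequence and 0.07 centred on housekeeping genes. The calcium median of -0.19 was -0.04, 0.03 and -0.48 in the same settings, and that of the death and signalling substrates, 0.16, was 0.13, 0.26 and -0.13.

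The genes with profiles most like that of CAPN2 208683_at were sought among 13701 genes by the root mean square distance over the 6 arrays, with each profile taken as differences from its control mean. The nearest were ASAP1, which encodes a GTPase-activating protein of the Arf family at focal adhesions, at 0.0437, TRIM52 at 0.0745, ZNF275 at 0.0914, PRKACB, a catalytic subunit of protein kinase A, at 0.0982, and KATNAL1, a katanin-like protein of microtubules, at 0.101. ASAP1 read 10.34, 10.34 and 10.28 on the control arrays and 11.73, 11.64 and 11.74 on the MBD2 arrays. Like CAPN2, it was tight within both groups. The differences of the 5 ran from 1.29 for ZNF275 to 1.38 for ASAP1, and as they were chosen for this likeness no test of them is given.

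**Figure D3:**
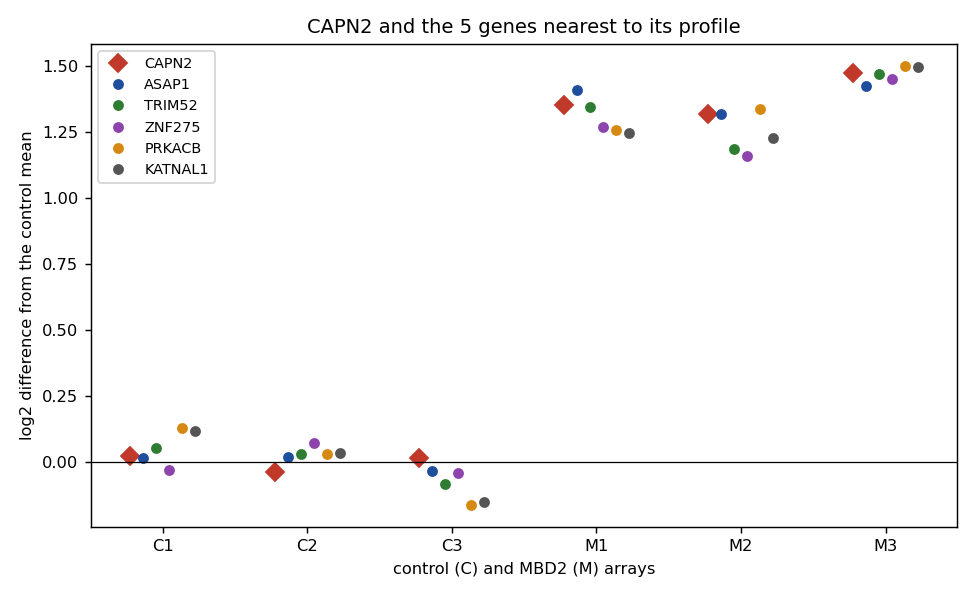
Log2 difference from the control mean (vertical axis) of CAPN2 208683_at (diamonds) and of the 5 genes nearest to it (circles) on control arrays C1 to C3 and MBD2 arrays M1 to M3, with genes offset sideways so that points do not hide each other. CAPN2 lies at 1.35, 1.32 and 1.47 on the MBD2 arrays, and the 5 genes are near it on every array because they were chosen to be.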

How the data were processed

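RNA of 3 control and 3 MBD2 samples was measured on 1-colour arrays. Each sample's group came from its treatment label. The authors deposited RMA signals on the log2 scale, 1 for every probe set of an array (the submitters' processing notes name RMA and affy, without versions), and the deposited log2 values run from 2.57 to 14.74 with a median of 5.24 on every array. RMA quantile-normalizes, so a shift shared by most genes cannot be seen.

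Probe sets were named through the platform annotation. Not used were 1801 with more than 1 symbol, 11721 without a symbol and 62 Affymetrix controls. The 41091 others were fitted with limma 3.58.1 in R 4.3.3 (group as the only term, eBayes, 1.95 prior degrees of freedom), with Benjamini-Hochberg adjustment over all of them. A call was an adjusted p under 0.05 and at least 1.5-fold. Near background means within 0.5 of 3.67, the highest value of TrpnX, a transcript that was not added. Gene lists were read at the brightest probe set of each gene. Values of different probe sets were not compared as levels, and 6 arrays limit the precision.

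The members and lists were chosen with earlier results of these data known. The text names every member, MBD2, up to 4 called genes a list, TLN1, VCL, SPTAN1, PTK2, EZR and CAPN10, and the 5 genes nearest to CAPN2, and says where another gene was named after its values were seen. In simulated data of 41091 probe sets with 3 arrays a group, the call recovered 2% of changes of 1.5-fold, 46% of 2-fold, 68% of 4-fold and 86% of 8-fold. The simulated noise was independent on every array and few probe sets were changed. The real groups hold near-identical arrays beside 1 that stands apart, so these rates need not hold for them. Alternatives changed the probe sets used, the filter on dim ones (mean of 5), the scaling, the fit, the call rule and the arrays.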

Additional observations from a re-analysis of the deposited data

How the results depend on the processing

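With any 1 array left out, between 2 and 3616 of all probe sets were called higher and between 18 and 1924 lower, against 369 and 402 over all arrays (3 and 20 without control array 1, 2 and 18 without control array 2, 388 and 508 without control array 3, 3616 and 1924 without MBD2 array 1, 32 and 67 without MBD2 array 2, 10 and 37 without MBD2 array 3). Between 0 and 1 member probe sets were then called higher, 0 and 2 adhesion substrates higher and 0 and 1 lower, 0 and 4 death and signalling substrates higher and 0 and 2 lower, 0 and 1 penta-EF-hand relatives higher, and 0 and 1 calcium genes lower. The CAPN2 difference ran from 1.33 to 1.41.

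With the mean of each gene's probe sets, 196 genes were called higher and 253 lower, no member and no death or signalling substrate among them, and CAPN2 differed by 0.86. With 1 brightest probe set a gene, 248 were called higher. With only probe sets without an ending for shared sequence, 245 were called higher and 246 lower, and 1 calcium gene, ORAI2, was called higher, while MBD2 was read only at 0.11. Centred on housekeeping genes, the median of all probe sets was -0.30, 75.2% of calls were lower in place of 52.1%, 180 probe sets were called higher, 0 members higher and 1 lower (CAPNS2), and CAPN2 differed by 1.09 without passing. Adhesion substrates called higher numbered 1, VIM, with the brightest or the mean probe set, with a mean of at least 5, centred on housekeeping genes, or with trend and robust eBayes. The methods' fold rule took 1230 probe sets as higher and 4 adhesion substrates. Without control array 3 and MBD2 array 1, 6380 probe sets were called higher and 4094 lower, with 4 members higher and 2 lower, 1 penta-EF-hand relative higher, 5 adhesion substrates higher and 2 lower, 6 death and signalling substrates higher and 2 lower, and 6 calcium genes lower. With near-identical arrays averaged, limma called 0 higher and 0 lower, with 2747 at an unadjusted p under 0.05 against 6796 over all arrays, and 0 members or death and signalling substrates. The cause of these moves was not tested beyond fewer arrays or probe sets in the fit.

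Deviations of arrays with the same replicate number correlated at 0.21, -0.33 and 0.28. Each group holds 1 array that stood apart, which shapes these deviations, so they cannot show whether the replicate numbers pair the arrays. With the replicate block, 1 probe set was called higher and 23 lower, 0 of them members or death and signalling substrates. No alternative reversed the direction of a called result.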
